A study of Mus musculus with 12 samples.

Results

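The genes of cellular iron storage and transport were described across the mouse hippocampus as 10 members: Trf, Tfrc, Steap3, Slc11a2, Slc11a1, Fth1, Ftl1, Hmox1, Slc40a1 and Cp. They were taken as the rows of the count table whose gene identifiers carry these symbols, 10 of 56980 identifiers, and all 10 were abundant enough to be tested. Bulk RNA sequencing was done on the hippocampus of 12 male mice, with 1 library per mouse identifier and 3 libraries in each of 4 groups. The groups were AppNL-G-F with Trem2 KO at 9 months (Trem2-KO below), AppNL-G-F at 9 months (App-KI below), AppNL-G-F with Trem2 KO at 3 months, and AppNL-G-F at 3 months. All mice therefore carried the App knock-in, in which the mouse gene is humanised and carries familial mutations, so that amyloid-β deposits form without overexpression of the precursor protein. Trem2 is a lipid-sensing receptor of microglia, the macrophages of the brain, and the design text asks how its absence changes the glial response to those deposits. No group without the App knock-in was analysed here, so age and amyloid load cannot be told apart.

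Iron reaches brain cells bound to transferrin (Trf), which its receptor (Tfrc) carries into endosomes. There the iron is reduced by Steap3 and passed into the cytosol by Slc11a2. Inside the cell it is stored in a shell of ferritin heavy (Fth1) and light (Ftl1) chains. More iron is released from haem by haem oxygenase 1 (Hmox1), and iron leaves through ferroportin (Slc40a1) after oxidation, for example by ceruloplasmin (Cp). In brain, transferrin mRNA is best known from oligodendrocytes, the transferrin receptor from the capillary endothelium and neurons, ceruloplasmin from astrocytes, and Slc11a1, a metal pump of the phagosome, from macrophages and microglia.

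Several of these mRNAs carry an iron-responsive element, a hairpin bound by iron regulatory proteins when iron is scarce. Bound in the 5′ UTR it blocks translation, and bound in the 3′ UTR of Tfrc it protects the mRNA from decay. The elements are shown because they mark where iron is known to act on these mRNAs. UTRs of GENCODE M21 transcripts were searched for an unpaired C, a stem of 5 pairs (G with T allowed) and the loop CAGTG followed by A, C or T. A match was held by 4 of the 10 members, and by 122 of 21901 protein-coding genes (0.557%) overall. The sites are written 5′ to 3′ as DNA over 30 bases, with the loop in capitals. Fth1 lies on chromosome 19, Ftl1 on chromosome 7, Slc40a1 on chromosome 1 and Tfrc on chromosome 16.
Fth1, 5′ UTR: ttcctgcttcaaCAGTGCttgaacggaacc
Ftl1, 5′ UTR: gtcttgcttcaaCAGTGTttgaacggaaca
Slc40a1, 5′ UTR: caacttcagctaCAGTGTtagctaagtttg
Tfrc, 3′ UTR, site 1: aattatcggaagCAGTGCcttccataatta
Tfrc, 3′ UTR, site 2: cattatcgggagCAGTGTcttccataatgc
Tfrc, 3′ UTR, site 3: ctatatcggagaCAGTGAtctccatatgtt
Tfrc, 3′ UTR, site 4: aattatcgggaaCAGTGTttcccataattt
The Fth1 and Ftl1 elements share the letters gcttcaa before the loop, and the 4 Tfrc elements share the letters tatcgg upstream of it. The remaining 6 members held no match to these letters in their annotated UTRs, which says nothing of other forms of the element.

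The libraries held between 14627892 and 24594655 counts each, and levels are given as CPM, counts scaled by normalised library size. Trem2, the targeted gene, stood at 3.62 to 3.83 CPM in Trem2-KO against 49.8 to 55.6 CPM in App-KI at 9 months. At 3 months it stood at 1.85 to 2.17 CPM in Trem2-KO against 8.05 to 10.4 CPM in App-KI. Markers of the choroid plexus, a tissue beside the hippocampus, stood apart in 3 libraries (Trem2-KO replicate 3 and App-KI replicate 2 at 9 months, App-KI replicate 1 at 3 months). Their sums over 14 markers were 56.3 to 88.9 CPM, against 475 to 3363 CPM in the other libraries. Sums over 12 markers of meningeal and perivascular fibroblasts reached 938 to 1950.2 CPM in Trem2-KO against 534 to 919 CPM in App-KI at 9 months. At 3 months they reached 673 to 799.5 CPM in Trem2-KO against 711 to 1157 CPM in App-KI. The fibroblast score is the mean log2 CPM of these 12 markers. It ran from 4.70 to 5.19 in Trem2-KO at 9 months and from 3.80 to 4.50 in all other libraries. A model that holds the score can therefore hardly separate it from that group. Member calls below are followed by their value without the 3 libraries, or with the fibroblast score in the model, where either changed the call.

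Per kilobase of annotated exon, the mean level over the 12 libraries spanned a wide range. Fth1 was far above the rest at 756 CPM per kb, followed by Trf at 215 and Ftl1 at 138 CPM per kb, whose ranges over libraries (143 to 290.1 and 119.8 to 170.0) overlapped. Tfrc at 15.2 and Slc11a2 at 9.38 CPM per kb came next, also with overlapping ranges (9.85 to 22.1 and 8.78 to 10.1). The 5 members of lowest level were Hmox1 at 4.36, Cp at 2.88, Slc40a1 at 2.55, Slc11a1 at 1.64 and Steap3 at 1.29 CPM per kb, and each overlapped its neighbour in this order. Slc11a1 had the widest range of the 10 in proportion to its level, from 0.509 to 4.21 CPM per kb.

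**Figure D1:**
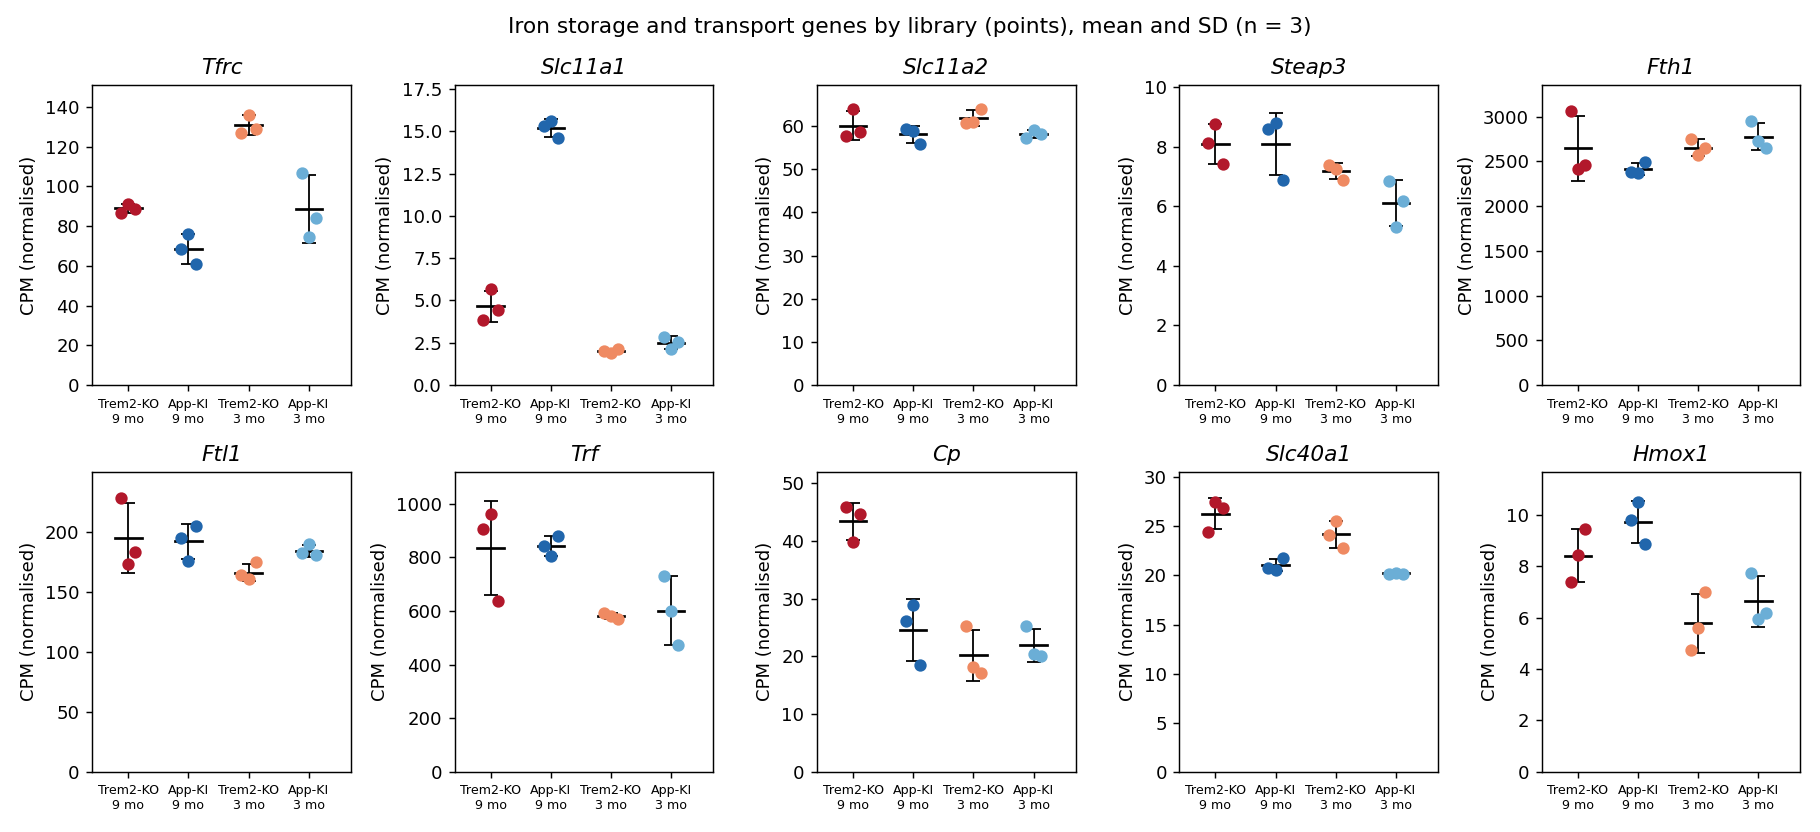
Normalised CPM of the 10 iron genes (linear axes from 0) in each library (points, 3 per group), with the group mean (line) and SD (bars). Slc11a1 lies at 14.6 to 15.6 CPM in App-KI at 9 months and at or below 5.65 CPM in the other 9 libraries, Cp is highest in the 3 Trem2-KO libraries at 9 months (39.8 to 45.9 CPM), and Slc11a2 stays between 55.8 and 64.0 CPM throughout.

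The comparison of Trem2-KO with App-KI at 9 months asked which iron genes differed without Trem2 once plaques were advanced. Slc11a1 fell, Cp and Slc40a1 rose, and the other 7 members did not pass the test. These 3 of 10 stand beside 2.08% of all 19152 tested genes called in this comparison by edgeR's quasi-likelihood test (Benjamini-Hochberg adjusted p under 0.05). The median log2 fold change was 0.03 over the members and 0.01 over all tested genes. The median size of the change was 0.17 over the members and 0.12 over all tested genes. Libraries of the groups did not overlap for 4 members (Tfrc, Slc40a1 and Cp higher, Slc11a1 lower), against 17.3% of all tested genes.

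Slc11a1, the phagosomal metal transporter (Nramp1), stood at 3.84, 5.65 and 4.45 CPM in Trem2-KO and at 15.3, 15.6 and 14.6 CPM in App-KI at 9 months. Every Trem2-KO library was below every App-KI library, and the Trem2-KO mean was 30.7% of the App-KI mean. The log2 fold change was -1.71 ± 0.15 (SE, n = 3 each; edgeR adjusted p = 3.29e-07). All of the 14 microglial markers were also lower in Trem2-KO, 12 of them past the test, with sums of 911 to 975 CPM in Trem2-KO against 1561 to 1678 CPM in App-KI. In bulk tissue, fewer cells of a type and less RNA per cell cannot be told apart. Relative to 1000 CPM of microglial markers, Slc11a1 stood at 4.21 to 5.80 CPM in Trem2-KO against 8.84 to 9.80 CPM in App-KI, without overlap. The difference of that ratio was -0.94 on the log2 scale (exact permutation test, two-sided, p = 0.1, the smallest that 3 against 3 allows; adjusted p = 0.125 over 5 such ratios, which were chosen after the values were seen). The neutrophil markers, whose cells also express Slc11a1, summed to 1.17 to 1.81 CPM in Trem2-KO against 0.328 to 1.93 CPM in App-KI.

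Cp, the ferroxidase ceruloplasmin, stood at 45.9, 39.8 and 44.7 CPM in Trem2-KO against 26.1, 29.0 and 18.6 CPM in App-KI at 9 months. The groups did not overlap, and the Trem2-KO mean was 177% of the App-KI mean (log2 fold change 0.82 ± 0.17, edgeR adjusted p = 0.0395). The fibroblast markers given above moved the same way: 11 of 12 had a positive change, and Slc6a20a and Aebp1 passed the test. With the fibroblast score in the model the Cp change was 0.03 (adjusted p = 0.984). Per 1000 CPM of fibroblast markers Cp stood at 23.5 to 42.4 CPM in Trem2-KO against 31.6 to 37.0 CPM in App-KI (log2 difference -0.22, exact permutation p = 0.4, adjusted p = 0.4). Per 1000 CPM of the 10 astrocyte markers it stood at 7.07 to 8.40 CPM in Trem2-KO against 3.01 to 4.51 CPM in App-KI (log2 difference 1.02, exact permutation p = 0.1, adjusted p = 0.125). The call was also lost without any single one of 8 libraries (adjusted p from 0.0589 to 0.156). The 4 exceptions were Trem2-KO replicates 1 and 3 and App-KI replicate 1 at 3 months, and App-KI replicate 2 at 9 months. Cp exons overlap those of Hps3 on the opposite strand, and reads of the pair may not be separable. Hps3 averaged 26.1 ± 0.408 CPM in Trem2-KO and 25.6 ± 1.52 CPM in App-KI at 9 months (SD, n = 3 each) and was not called.

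Slc40a1, the iron exporter ferroportin, stood at 24.4, 27.5 and 26.9 CPM in Trem2-KO against 20.8, 20.6 and 21.8 CPM in App-KI at 9 months. The difference was small but the groups did not overlap (125% of the App-KI mean, log2 fold change 0.32 ± 0.08, edgeR adjusted p = 0.0408). At 3 months the values lay apart in the same direction, at 24.1, 25.5 and 22.8 CPM in Trem2-KO against 20.1, 20.2 and 20.1 CPM in App-KI. That log2 fold change of 0.26 ± 0.08 did not pass the test (adjusted p = 0.166). The call at 9 months sat at the threshold. It was lost with the fibroblast score in the model (log2 fold change 0.42, adjusted p = 0.496), without the 3 libraries of low choroid plexus markers (0.28, adjusted p = 0.19), and with only the 9-month libraries fitted (0.31, adjusted p = 0.113). It was also lost without any single one of 9 libraries (adjusted p from 0.0516 to 0.142), while the change stayed between 0.28 and 0.37 as each of the 12 was left out. The exceptions were replicate 1 of Trem2-KO at 9 months and of both genotypes at 3 months. All 10 endothelial markers had a positive change at 9 months, 2 past the test, while 8 had a negative change at 3 months. Per 1000 CPM of these markers Slc40a1 overlapped at 9 months, at 47.7 to 58.3 CPM in Trem2-KO against 46.9 to 54.1 CPM in App-KI. At 3 months it did not overlap, at 57.3 to 63.6 CPM in Trem2-KO against 47.7 to 49.5 CPM in App-KI.

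Tfrc, the receptor for transferrin-bound iron, was higher in each Trem2-KO library than in each App-KI library at both ages without passing the test at either. It stood at 86.7, 91.2 and 88.8 CPM in Trem2-KO against 68.4, 76.2 and 60.9 CPM in App-KI at 9 months (log2 fold change 0.37 ± 0.12, edgeR adjusted p = 0.17). At 3 months it stood at 127, 136 and 129 CPM in Trem2-KO against 107, 74.4 and 84.1 CPM in App-KI (0.56 ± 0.12, edgeR adjusted p = 0.0625). Both differences passed without the 3 libraries of low choroid plexus markers (0.45, adjusted p = 0.00203 at 9 months; 0.72, adjusted p = 5.64e-06 at 3 months). The 3-month difference also passed with the fibroblast score in the model (0.65, adjusted p = 0.0131). At 9 months the difference also passed without App-KI 3-month replicate 1 or 2 (adjusted p = 0.00489 and 0.0458). At 3 months it also passed without App-KI 3-month replicate 1 or App-KI 9-month replicate 2 or 3 (adjusted p from 5.3e-05 to 0.0468). DESeq2 called both (adjusted p = 0.019 at 9 months and 4.36e-05 at 3 months). Per 1000 CPM of endothelial markers Tfrc overlapped at 9 months, at 169 to 194 CPM in Trem2-KO against 151 to 173 CPM in App-KI. At 3 months it did not overlap, at 313 to 339 CPM in Trem2-KO against 181 to 255 CPM in App-KI.

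**Figure D2:**
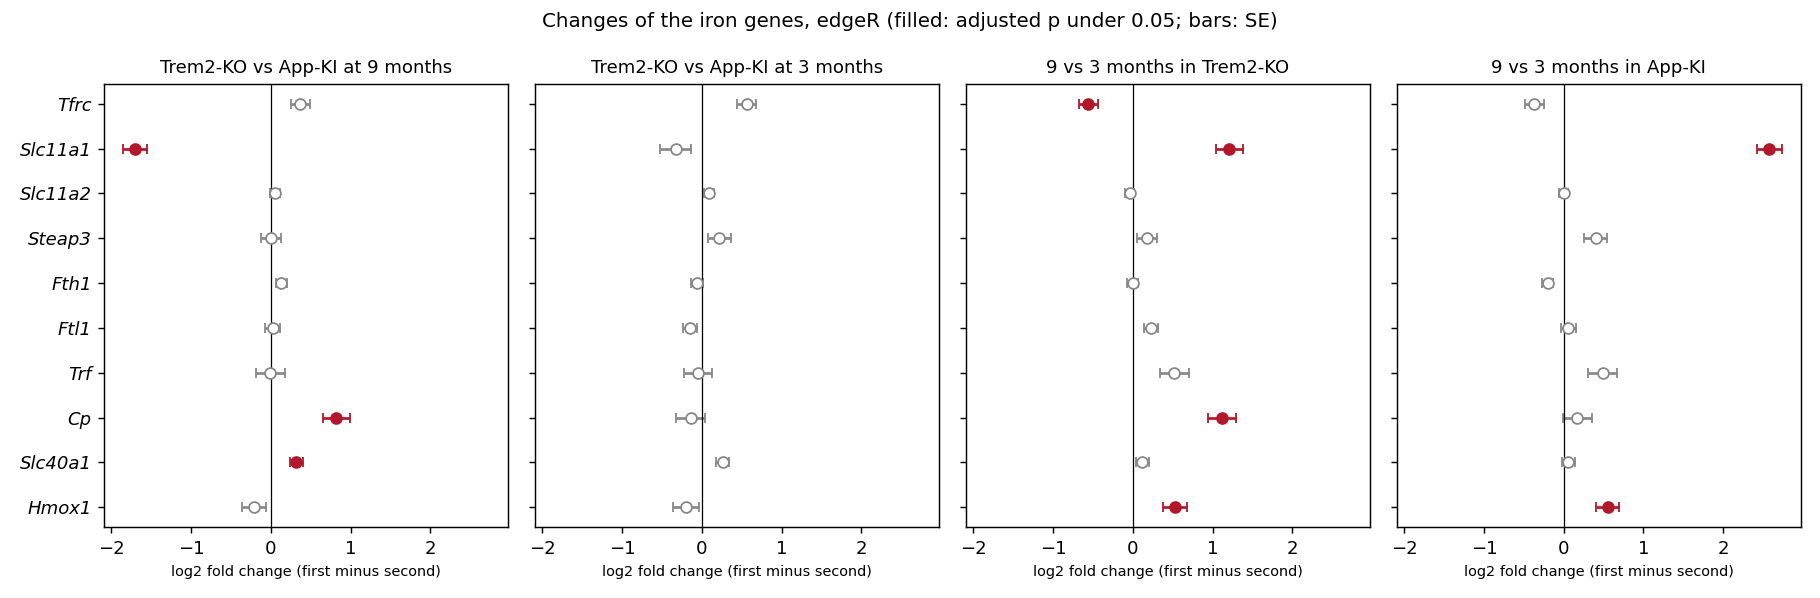
Log2 fold changes of the 10 iron genes from edgeR, 1 panel per comparison (x axis: first group minus second group; bars: SE; filled points: adjusted p under 0.05). Slc11a1 is at -1.71 for Trem2-KO against App-KI at 9 months, and at 2.58 and 1.21 for 9 against 3 months in App-KI and Trem2-KO, while Slc11a2 and Fth1 stay within 0.20 of 0 in all panels.

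At 3 months, Trem2-KO and App-KI differed in none of the 10 members by edgeR, against 0.590% of all tested genes called. Unadjusted p was under 0.05 for 2 members, Tfrc and Slc40a1, and the share of all tested genes at that threshold is not given here. DESeq2 called 1 member, Tfrc, and 259 of the 19152 tested genes. The median log2 fold change was -0.06 over the members and 0.00 over all tested genes. Libraries did not overlap for 5 members (Slc11a2, Tfrc, Slc40a1 and Steap3 higher, Ftl1 lower), against 17.6% of all tested genes. Slc11a1 stood at 1.99, 1.89 and 2.12 CPM in Trem2-KO against 2.85, 2.11 and 2.54 CPM in App-KI, a log2 fold change of -0.33 ± 0.19 (adjusted p = 0.537).

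From 3 to 9 months in Trem2-KO hippocampi, Slc11a1, Cp and Hmox1 rose and Tfrc fell, 4 of 10 members against 8.70% of all tested genes called by edgeR. The median size of the log2 change was 0.38 over the members and 0.14 over all tested genes. From 3 to 9 months in App-KI hippocampi, Slc11a1 and Hmox1 rose, 2 of 10 members against 6.66% of all tested genes. The median size was 0.29 over the members and 0.12 over all tested genes. Libraries did not overlap for 6 members in each genotype, 5 higher and 1 lower at 9 months, against 25.4% of all tested genes in Trem2-KO and 22.7% in App-KI.

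Slc11a1 rose to a 9-month mean of 233% of the 3-month mean in Trem2-KO (log2 fold change 1.21 ± 0.17, edgeR adjusted p = 0.000169) and to 606% in App-KI (2.58 ± 0.16, adjusted p = 3.24e-10). The difference between these changes, the interaction of age and genotype, was -1.37 ± 0.24 (edgeR adjusted p = 0.00906). Slc11a1 was the 1 member of 10 that passed it, against 0.266% of all tested genes. Without Trem2-KO 3-month replicate 3 the interaction was -1.32 with adjusted p = 0.0528. Microglial markers rose too: 12 of 14 passed the test in Trem2-KO and 14 of 14 in App-KI. Relative to 1000 CPM of these markers, Slc11a1 stood at 4.21 to 5.80 CPM at 9 months against 3.35 to 3.60 CPM at 3 months in Trem2-KO. In App-KI it stood at 8.84 to 9.80 CPM at 9 months against 3.40 to 4.80 CPM at 3 months. The fibroblast score in the model left a change of 1.34 with adjusted p = 0.118 in Trem2-KO and an interaction of -1.23 with adjusted p = 0.926. These sizes are close to the 1.21 and -1.37 without the score, which hardly separates from the Trem2-KO group at 9 months.

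**Figure D3:**
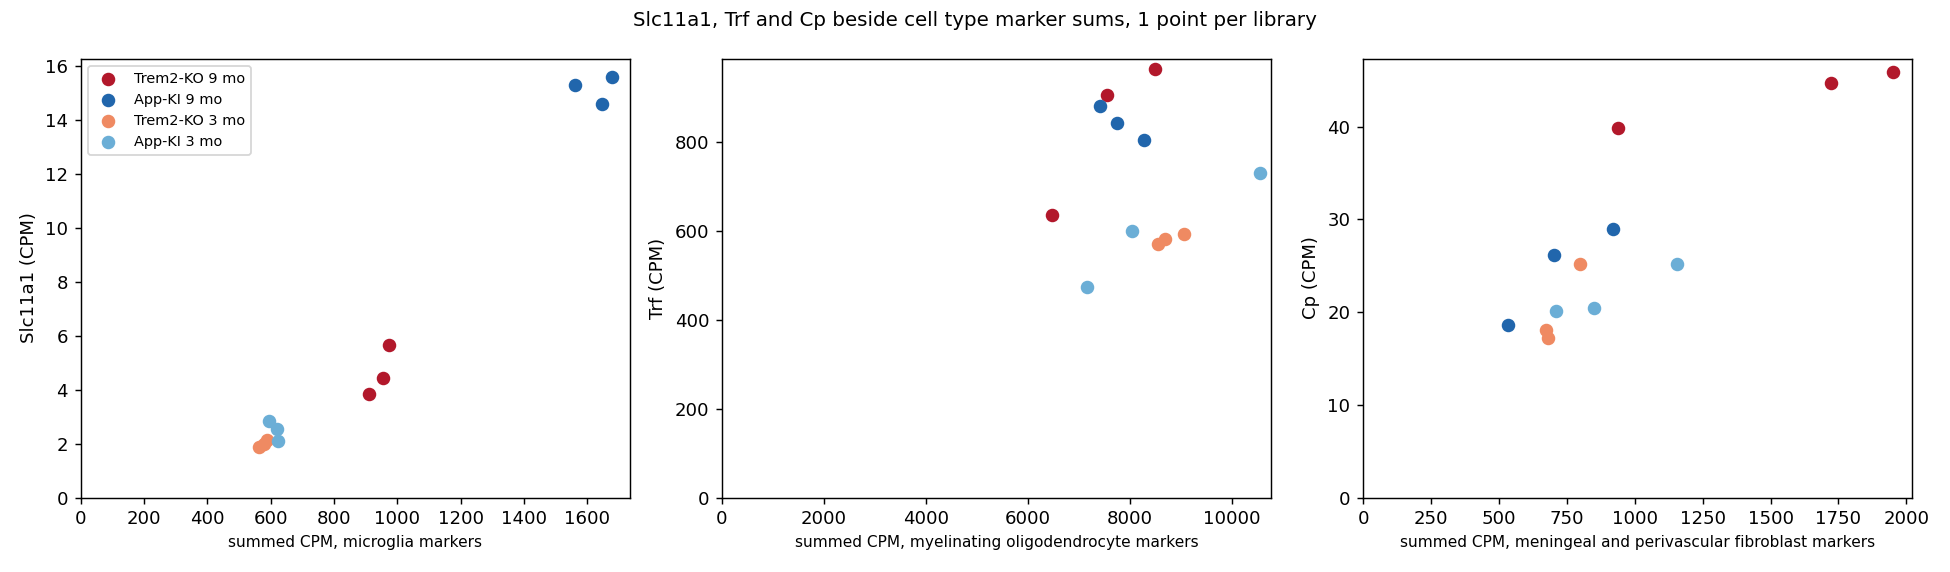
Levels of Slc11a1, Trf and Cp (y axes, CPM) against the summed CPM of microglial, myelinating oligodendrocyte, and meningeal and perivascular fibroblast markers (x axes), 1 point per library, coloured by group. Slc11a1 and its marker sum are both highest in App-KI at 9 months (1561 to 1678 CPM of markers), Trf relative to its marker sum is higher in all 6 libraries of 9 months than in all 6 of 3 months, and Cp is highest in the 3 Trem2-KO libraries at 9 months, whose fibroblast sums (938 to 1950.2 CPM) overlap those of App-KI at 3 months (711 to 1157 CPM).

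Hmox1, which opens the haem ring and frees its iron, stood at 7.37, 8.43 and 9.44 CPM at 9 months against 4.73, 5.58 and 6.99 CPM at 3 months in Trem2-KO. In App-KI it stood at 9.81, 10.5 and 8.86 CPM at 9 months against 7.75, 5.94 and 6.19 CPM at 3 months. The 9-month libraries lay above the 3-month libraries in both genotypes, with log2 fold changes of 0.53 ± 0.15 in Trem2-KO (edgeR adjusted p = 0.0356) and 0.55 ± 0.15 in App-KI (adjusted p = 0.032). The interaction was -0.01 ± 0.22. Both calls depended on single libraries, and neither passed without the 3 libraries of low choroid plexus markers (0.43, adjusted p = 0.0899 in Trem2-KO; 0.62, adjusted p = 0.055 in App-KI). With the fibroblast score in the model the Trem2-KO change did not pass (0.40, adjusted p = 0.681). The Trem2-KO call was lost without Trem2-KO 3-month replicate 1 or 2, Trem2-KO 9-month replicate 2 or 3, or App-KI 9-month replicate 1 (adjusted p from 0.0507 to 0.14). In App-KI the change did not pass when replicate 2 or 3 at 3 months, or replicate 1 or 2 at 9 months, was left out (adjusted p from 0.105 to 0.143). As each of the 12 libraries was left out, the change stayed between 0.42 and 0.69 in Trem2-KO and between 0.47 and 0.68 in App-KI. Hmox1 is also made by macrophages. Hmox1 itself averaged 8.41 CPM in Trem2-KO against 9.71 CPM in App-KI at 9 months, with overlapping groups. That log2 fold change of -0.21 ± 0.15 did not pass the test (edgeR adjusted p = 0.585). The microglial markers summed to 911 to 975 CPM in Trem2-KO against 1561 to 1678 CPM in App-KI. Per 1000 CPM of these microglial markers Hmox1 stood at 8.09 to 9.88 CPM in Trem2-KO against 5.38 to 6.28 CPM in App-KI at 9 months. The log2 difference was 0.57 (exact permutation p = 0.1, adjusted p = 0.125). With age this ratio fell in App-KI, to at most 6.28 CPM at 9 months from at least 9.55 CPM at 3 months. In Trem2-KO it overlapped, at 8.09 to 9.88 CPM at 9 months against 8.15 to 11.9 CPM at 3 months. Which cells carried the Hmox1 changes was not tested.

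Tfrc ran the other way with age. In Trem2-KO each of the 9-month libraries (86.7 to 91.2 CPM) was below each of the 3-month libraries (127 to 136 CPM), a log2 fold change of -0.56 ± 0.12 (edgeR adjusted p = 0.0137). In App-KI the ranges of 60.9 to 76.2 CPM at 9 months and 74.4 to 107 CPM at 3 months overlapped, with -0.37 ± 0.12 (adjusted p = 0.0977). That change passed in DESeq2 (adjusted p = 0.00796), without App-KI 3-month replicate 2 (adjusted p = 0.00882) and without the 3 libraries of low choroid plexus markers (adjusted p = 0.0319). The Trem2-KO call was lost without Trem2-KO 3-month replicate 2 or Trem2-KO 9-month replicate 1 or 2 (adjusted p from 0.0531 to 0.061), while the change stayed between -0.58 and -0.52 as each of the 12 libraries was left out. It was larger with the fibroblast score in the model, and did not pass (-0.93, adjusted p = 0.0929). The interaction was -0.18 ± 0.17 (adjusted p = 0.99). Endothelial markers, 10 in all, summed to 471 to 513 CPM at 9 months against 397 to 404 CPM at 3 months in Trem2-KO. Tfrc per 1000 CPM of endothelial markers stood at 169 to 194 CPM at 9 months against 313 to 339 CPM at 3 months. The erythroid markers, whose precursor cells are rich in Tfrc, summed to at most 28.6 CPM in any library.

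Cp rose with age in Trem2-KO, and its change with age did not pass the test in App-KI. It stood at 45.9, 39.8 and 44.7 CPM at 9 months against 25.2, 18.1 and 17.2 CPM at 3 months in Trem2-KO (log2 fold change 1.12 ± 0.18, edgeR adjusted p = 0.00326). In App-KI it stood at 26.1, 29.0 and 18.6 CPM at 9 months against 25.2, 20.4 and 20.1 CPM at 3 months (0.17 ± 0.18, adjusted p = 0.736). The interaction was 0.95 ± 0.25 with an edgeR adjusted p of 0.331, and DESeq2 called it (adjusted p = 0.00297). Fibroblast markers rose beside it in Trem2-KO, 7 of 12 past the test. With their score in the model the Cp change in Trem2-KO was 0.24 (adjusted p = 0.666) and the interaction was -0.03.

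Trf, the iron carrier, was higher at 9 months in both genotypes without passing the test. It stood at 905, 963 and 636 CPM at 9 months against 592, 582 and 570.0 CPM at 3 months in Trem2-KO (log2 fold change 0.52 ± 0.18, edgeR adjusted p = 0.123). In App-KI it stood at 843, 805 and 881 CPM at 9 months against 729, 599.5 and 473 CPM at 3 months (0.49 ± 0.18, adjusted p = 0.195). The groups did not overlap in either genotype. Without the 3 libraries of low choroid plexus markers the change was 0.68 in each genotype and passed (adjusted p = 3.68e-05 in Trem2-KO and 0.000104 in App-KI). Without Trem2-KO 9-month replicate 3 alone the Trem2-KO change passed (0.68, adjusted p = 0.0244). It also passed with DESeq2 (0.52, adjusted p = 0.035) and with edgeR without robust estimation (0.52, adjusted p = 0.0298). In App-KI the change passed with edgeR without robust estimation (0.49, adjusted p = 0.0465). Of the 12 myelin markers, 2 had a positive change with age in Trem2-KO and 1 in App-KI, none past the test. The test called 3 markers lower in Trem2-KO and 1 in App-KI. Sums over all 12 markers ran from 6464 to 8485 CPM at 9 months against 8547 to 9064 CPM at 3 months in Trem2-KO. In App-KI they ran from 7411 to 8275 CPM at 9 months against 7153 to 10552 CPM at 3 months. Per 1000 CPM of myelin markers Trf stood at 98.4 to 119.8 CPM at 9 months against 65.3 to 67.0 CPM at 3 months in Trem2-KO. In App-KI it stood at 97.3 to 119 CPM at 9 months against 66.2 to 74.6 CPM at 3 months. All 6 libraries of 9 months lay above all 6 of 3 months, with a mean difference of 0.68 on the log2 scale. An exact permutation test, two-sided, gave p = 0.00216, the smallest that 6 against 6 allows (adjusted p = 0.0108 over 5 ratios). The ratios were chosen after the values were seen, so this p-value describes the separation and is no independent evidence for it. Libraries were permuted without regard to genotype, and further ratios, such as Tfrc per endothelial markers, were not counted in the 5.

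None of the storage and remaining import genes (Fth1, Ftl1, Slc11a2 and Steap3) passed edgeR's test in any of the 5 comparisons. Fth1, the ferritin heavy chain that oxidises iron, stood at 3067, 2416 and 2464 CPM in Trem2-KO and 2386, 2369 and 2494 CPM in App-KI at 9 months. At 3 months it stood at 2749.7, 2568 and 2649 CPM in Trem2-KO and 2947, 2726 and 2653 CPM in App-KI. Its log2 fold changes ran from -0.20 ± 0.07 for 9 against 3 months in App-KI (adjusted p = 0.131, groups not overlapping) to 0.13 ± 0.07 for Trem2-KO against App-KI at 9 months (adjusted p = 0.457). The change with age in App-KI passed without Trem2-KO 9-month replicate 1 (adjusted p = 0.00758), the library in which Fth1 and Ftl1 were both highest. It also passed with only the App-KI libraries fitted (-0.20, adjusted p = 0.0104) and with no filter on low counts (-0.21, adjusted p = 0.00179).

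Ftl1, the light chain that nucleates the iron core, stood at 228, 173 and 183 CPM in Trem2-KO and 195, 176 and 205 CPM in App-KI at 9 months. At 3 months it stood at 164, 160.5 and 175 CPM in Trem2-KO and 182, 189.9 and 181 CPM in App-KI. The largest of its changes was 0.23 ± 0.09 for 9 against 3 months in Trem2-KO (adjusted p = 0.126), with overlapping groups. It passed without Trem2-KO 9-month replicate 2 (0.31, adjusted p = 0.0288) and with no filter on low counts (0.23, adjusted p = 0.0011). Ferritin genes have processed pseudogenes that may take or give reads. The pseudogene Ftl1-ps1 averaged between 2.73 and 3.50 CPM in the 4 groups and was not called.

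Slc11a2, the endosomal and plasma membrane iron importer (DMT1), was the steadiest member, with group means of 60.1 ± 3.40 CPM in Trem2-KO and 58.1 ± 2.02 CPM in App-KI at 9 months (SD, n = 3 each). At 3 months its means were 61.9 ± 1.75 CPM in Trem2-KO and 58.2 ± 0.974 CPM in App-KI. Its log2 fold changes ran from -0.04 to 0.09, each with an SE of 0.06. Steap3, the endosomal ferric reductase, stood at 8.12, 8.77 and 7.42 CPM in Trem2-KO and 8.60, 8.79 and 6.89 CPM in App-KI at 9 months. At 3 months it was at 7.40, 7.25 and 6.89 CPM in Trem2-KO and 6.85, 5.31 and 6.19 CPM in App-KI. The 9-month libraries lay above the 3-month libraries in each genotype, by 0.18 ± 0.13 in Trem2-KO (adjusted p = 0.475) and 0.40 ± 0.14 in App-KI (adjusted p = 0.0909), and neither passed. Without App-KI 9-month replicate 3 the App-KI change passed (0.49, adjusted p = 0.0485).

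Across the 12 libraries, the genes whose centred log2 CPM profile lay nearest to that of each called member were listed from 12691 genes, by the root mean square (RMS) difference. For Slc11a1, whose own profile had an RMS of 1.14, they were Ptprc at 0.24, Fcgr2b at 0.26 and Myo1f at 0.27. For Cp (own RMS 0.48) they were Serping1 at 0.15 and Fbln5 and Thbs2 at 0.16 each. For Tfrc (own RMS 0.36) they were Klhdc9 at 0.17 and Aldh1b1 and Marcksl1 at 0.18 each, and for Hmox1 (own RMS 0.34) Lgi4 at 0.12, Rab32 at 0.14 and Parvg at 0.15. For Slc40a1, which varied least (own RMS 0.16), they were Phf13, Pole3 and Lmna at 0.08 each.

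A wider list of 82 genes of iron sensing, haem, iron-sulphur clusters and the antioxidant defence tied to iron gave the surroundings. Of these 76 were tested, and 16 were called in at least 1 of the 5 comparisons. None was called by edgeR for Trem2-KO against App-KI at 9 months (unadjusted p under 0.05 for 15, DESeq2 called 4), at 3 months (5, DESeq2 called 0) or in the interaction (7, DESeq2 called 1). The share of all tested genes with unadjusted p under 0.05 is not given here, so these counts cannot be read as particular to the list. Over all tested genes DESeq2 called 259 at 3 months and 99 in the interaction. Its total at 9 months is not given here, so the 4 genes it called there cannot be read as particular to the list. Without the 3 libraries of low choroid plexus markers, 3 were called higher in Trem2-KO at 9 months (Hfe, Nqo1 and Flvcr1, a haem exporter). That setting drops Trem2-KO replicate 3 and App-KI replicate 2 at 9 months, so few libraries remain. Their choroid plexus sums were 3363 and 2700.0 CPM in Trem2-KO against 1345 and 1420.3 CPM in App-KI. In the dropped Trem2-KO library Hfe stood at 10.1 CPM, against 19.1 and 20.6 CPM in those kept. Nqo1 stood at 8.70 CPM against 13.8 and 16.3 CPM. The share of all tested genes called in this setting is not given here. With age, 9 rose and 1 fell in Trem2-KO, and 5 rose and 4 fell in App-KI. The median log2 change over the list was 0.04 in Trem2-KO and 0.01 in App-KI, against 0.00 over all tested genes in both. Those 10 and 9 of 76 stand beside the 8.70% and 6.66% of all tested genes called. Hamp and Hamp2, which encode hepcidin, the hormone that removes ferroportin, and Ftmt, Hp and Hephl1 had too few counts to test, and Hjv had no identifier in the table.

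Passing in both genotypes were Nfe2l2, the transcription factor NRF2 (log2 fold change 0.60 ± 0.09 in Trem2-KO and 0.58 ± 0.09 in App-KI), Lrp1, the receptor that takes up haem bound to hemopexin (0.33 ± 0.06 and 0.35 ± 0.06), and Glrx5, a mitochondrial iron-sulphur cluster carrier, which fell (-0.36 ± 0.08 and -0.32 ± 0.08). Nfe2l2 averaged 43.6 ± 1.89 CPM at 9 months against 28.8 ± 1.13 CPM at 3 months in Trem2-KO (SD, n = 3 each). In App-KI it averaged 48.9 ± 3.07 CPM at 9 months against 32.6 ± 4.89 CPM at 3 months. The edgeR adjusted p of Nfe2l2 was 0.000229 in Trem2-KO and 0.000162 in App-KI.

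In Trem2-KO, 7 further genes passed with age. Bmp6, an inducer of hepcidin, had the largest change (1.41 ± 0.27), with 35.1, 30.4 and 21.8 CPM at 9 months against 9.94, 12.9 and 9.93 CPM at 3 months. Cd163, the haemoglobin-haptoglobin receptor and itself a marker of border macrophages, followed at 1.26 ± 0.26. Hfe, a partner of the transferrin receptor (0.89 ± 0.24), Nqo1, an NRF2 target (0.81 ± 0.20), Slc7a11, the cystine importer (0.80 ± 0.15), Aifm2, the ferroptosis suppressor FSP1 (0.44 ± 0.13), and Slc39a14, a carrier of free iron and zinc (0.26 ± 0.07), completed them. Fibroblast markers rose in the same libraries, as given for Cp. All 14 choroid plexus markers also had positive changes (median log2 fold change 1.28), none past the test. Their sums at 9 months were 3363, 2700.0 and 88.9 CPM in replicates 1, 2 and 3. At that age Bmp6, Hfe, Nqo1 and Slc39a14 were lowest in replicate 3, and Cd163, Slc7a11 and Aifm2 in replicate 2. The cause was not tested. Summed border macrophage markers, Cd163 among them, stood at 23.5 CPM or more at 9 months and at 18.1 CPM or less at 3 months. With the fibroblast score in the model none of the list was called in this comparison (adjusted p from 0.121 to 0.979 for the 10 genes), but their changes moved differently. Hfe (1.30), Nqo1 (1.25), Slc39a14 (0.50) and Glrx5 (-0.52) had larger changes than without the score, and that of Bmp6 was about as large. Nfe2l2 was at 0.44 and Aifm2 at 0.24, and Lrp1 (0.09), Cd163 (0.05) and Slc7a11 (0.03) were near 0. Without the 3 libraries of low choroid plexus markers Aifm2 did not pass (0.40, adjusted p = 0.0834). Single libraries ended the call of Hfe (without any one of 10 of 12, adjusted p up to 0.163), Nqo1 (4 of 12, up to 0.103), Aifm2 (3 of 12, up to 0.188), Slc39a14 (3 of 12, up to 0.122), Bmp6 (1 of 12, 0.0645) and Glrx5 (1 of 12, 0.0514).

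In App-KI, 6 further genes passed with age. Cybrd1, a ferric reductase (0.72 ± 0.15), Hif1a, the hypoxia-inducible factor (0.25 ± 0.05), and Picalm, an endocytic adaptor of transferrin receptor uptake (0.22 ± 0.06), rose. Cisd1, an iron-sulphur protein of the mitochondrial outer membrane (-0.53 ± 0.10), Isca2 (-0.34 ± 0.08) and Iscu, the scaffold of cluster assembly (-0.29 ± 0.07), fell. Single libraries ended the call of Picalm (5 of 12, adjusted p up to 0.211), Iscu (3 of 12, up to 0.0632), Glrx5 (3 of 12, up to 0.0911) and Isca2 (2 of 12, up to 0.0542). Without the 3 libraries of low choroid plexus markers, Cisd1 (-0.49, adjusted p = 0.105), Picalm (0.25, adjusted p = 0.0882), Glrx5 (-0.32, adjusted p = 0.0834) and Hif1a (0.22, adjusted p = 0.0559) did not pass, with changes close to those of all libraries. The interaction passed for none of the genes called in 1 genotype, with values from -0.32 for Cybrd1 to 1.16 for Cd163, so a difference between the genotypes in their change with age was not shown. The 3 most abundant uncalled genes of the list were App at 1189.7 CPM, Prnp at 998 CPM and Slc22a17, the lipocalin 2 receptor, at 853 CPM in Trem2-KO at 9 months, against 1215, 1010.3 and 776 CPM in App-KI.

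**Figure D4:**
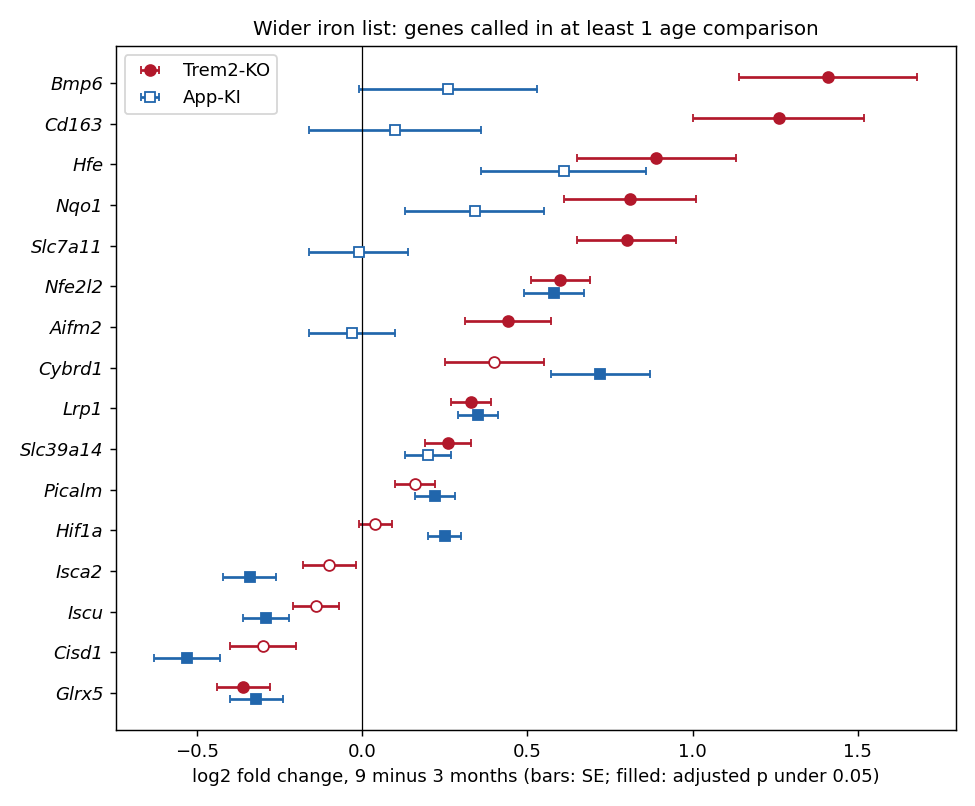
Log2 fold change of 9 against 3 months (x axis; bars: SE) for the 16 genes of the wider iron list called in at least 1 genotype, in Trem2-KO (circles) and App-KI (squares), filled where the edgeR adjusted p was under 0.05. Nfe2l2, Lrp1 and Glrx5 are filled in both genotypes, and Bmp6 is at 1.41 in Trem2-KO and 0.26 in App-KI.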

How the data were processed

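The authors deposited unnormalised counts of reads, 1 column per library, as their whole numbers and unequal totals show. Per the submitters' processing notes, the tools were STAR 2.7.10a with featureCounts 2.0.3, DESeq2 1.36.0 and R 4.2.0 on GRCm39, whose roles are not recorded. How strand and multi-mapped reads were handled is not given in the sources used here. Counts of overlapping genes (Cp and Hps3, Slc11a2 and Gm5475, Trf and Gm20425, Ftl1 and Gm22133 or Gm10252) and of ferritin pseudogenes are uncertain. Per the labels' protocols, total RNA was made into libraries with the SMART-Seq mRNA LP kit.

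Symbols (52073 of 56980 identifiers), exon lengths and UTRs came from GENCODE M21 on GRCm38, another build, so no coordinates are given. Genes were filtered with filterByExpr (minimum count 10, minimum total 15; 19152 kept) and scaled by TMM. edgeR 4.0.16 (R 4.3.3; quasi-likelihood F-test, robust) was fitted with 1 term per group over 12 libraries (8 residual degrees of freedom), with Benjamini-Hochberg adjustment over all tested genes and calls under 0.05. SEs were derived from the test's F statistic. Depth was 14627892 to 24594655 counts, and 3 counts, the limit a count of 0 allows, equal 0.122 to 0.205 CPM; this covers counting error only. Alternatives were DESeq2 1.42.0 and other scaling, filter, covariates and libraries. The labels give each library its own mouse identifier; p-values measure the spread between these libraries.

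The members and lists were chosen with earlier results of these data known. The genes named are the 10 members, Trem2, wider-list genes called in any comparison with the 3 most abundant uncalled ones, and the 3 genes nearest in profile to each called member; marker genes named beside them are those called.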

Additional observations from a re-analysis of the deposited data

Results flagged for a closer look

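The change of Slc11a1 between genotypes differed between ages. The genotype difference (Trem2-KO minus App-KI) was -1.71 on the log2 scale at 9 months and -0.33 at 3 months, and the interaction was -1.37 ± 0.24 (edgeR adjusted p = 0.00906).

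Aifm2, a ferroptosis suppressor of the wider list, was higher in Trem2-KO than in App-KI at 9 months and lower at 3 months. It stood at 10.5, 8.82 and 10.5 CPM in Trem2-KO against 8.23, 7.67 and 8.46 CPM in App-KI at 9 months, and at 7.88, 7.91 and 6.22 CPM in Trem2-KO against 8.40, 8.16 and 8.34 CPM in App-KI at 3 months. The groups did not overlap at either age, with log2 fold changes of 0.29 at 9 months and -0.18 at 3 months, neither of which passed edgeR's test, and the interaction was 0.47 ± 0.18 (edgeR adjusted p = 0.591).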

How the results depend on the processing

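The number of the 10 members called in each comparison moved with several settings. For Trem2-KO against App-KI at 9 months (3 called) it was 1 with the fibroblast score in the model and 1 to 4 without single libraries, where Slc11a1 alone was called throughout. At 3 months (0 called) it was 1, Tfrc, with no filter on low counts, without robust estimation, with either marker score in the model, with DESeq2 and without the 3 libraries of low choroid plexus markers (a choice made after seeing the data), and 0 to 1 without single libraries. For 9 against 3 months in Trem2-KO (4 called) it was 0 with the fibroblast score and 2 to 4 without single libraries. Trf joined the called members there with DESeq2 and without robust estimation, and Ftl1 with no filter. In App-KI (2 called) it was 4 with no filter, 4 without robust estimation and 1 to 3 without single libraries. For the interaction (1 called) it was 2, with Cp, with no filter and with DESeq2, 0 with the fibroblast score and 0 to 1 without single libraries. Other scaling changed none of these counts. The fibroblast score was highest in the Trem2-KO libraries of 9 months, and with it in the model all genes called fell to 31 for genotype at 9 months and 51 for age in Trem2-KO. Over all genes at 3 months, calls numbered 347 with no filter, 259 with DESeq2, 218 with only the libraries compared and 177 with the choroid plexus score, against 113. In the interaction they numbered 187 with no filter, 99 with DESeq2, 82 with the choroid plexus score and 0 with the fibroblast score, against 51. At 9 months they numbered 831 with no filter against 398, and for age in App-KI 826 without the 3 libraries against 1276.

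Signs turned for changes that edgeR had not called, most of them near 0. The exceptions were the interactions of Cp (0.95, called by DESeq2) and Fth1 (0.20) and the age change of Steap3 in Trem2-KO (0.18). With the fibroblast score they were 0.06 (Cp, genotype at 3 months), -0.11 (Fth1) and -0.04 (Ftl1, genotype at 9 months), 0.05 (Slc11a2) and -0.09 (Steap3, age in Trem2-KO), and in the interaction 0.06 (Slc11a2), -0.10 (Fth1), -0.17 (Trf) and -0.03 (Cp). With the choroid plexus score they were -0.01 (Ftl1) and 0.02 (Steap3), genotype at 9 months, and with no filter 0.01 (Steap3, genotype at 9 months) and 0.00 (Fth1, age in Trem2-KO). Without the 3 libraries they were 0.11 (Trf, genotype at either age; Steap3 at 9 months), 0.00 (Ftl1 at 9 months; Trf interaction) and 0.04 (Fth1, age in Trem2-KO). Without single libraries the ranges were -0.20 to 0.11 and -0.13 to 0.15 (Trf, genotype at 3 and at 9 months), -0.11 to 0.10 (Ftl1) and -0.10 to 0.06 (Steap3, genotype at 9 months), -0.12 to 0.06 (Fth1, age in Trem2-KO), -0.03 to 0.02 (Slc11a2, age in App-KI), -0.15 to 0.15 (Hmox1) and -0.13 to 0.19 (Trf, interaction). The causes were not tested. No paired analysis was possible because the labels give mouse identifiers and no replicate numbers shared between groups. Depth limited Slc11a1 at 3 months most, with 29 to 70 counts a library.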

Other observations

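When the genotype difference was averaged over both ages in the same model, a contrast chosen after the data were seen, 3 of 10 members passed edgeR's test, against 4.14% of all tested genes: Slc11a1 (log2 fold change -1.02 ± 0.12, adjusted p = 2.23e-05), Tfrc (0.46 ± 0.08, adjusted p = 0.0101) and Slc40a1 (0.29 ± 0.06, adjusted p = 0.00476). All 6 Trem2-KO libraries lay above the App-KI libraries of the same age for Tfrc and Slc40a1. These are a receptor for iron uptake and the exporter, and the mRNAs of both carry an iron-responsive element, at opposite ends. The data used here hold no measure of iron, and a link between the elements and these mRNA levels was not tested. With the fibroblast score in the model, Tfrc did not pass (0.34, adjusted p = 0.0889).

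The change with age was likewise averaged over both genotypes, again a contrast chosen after the data were seen. It passed edgeR's test for 6 of 10 members, against 17.0% of all tested genes. Slc11a1 (1.90 ± 0.12), Cp (0.64 ± 0.13), Hmox1 (0.54 ± 0.11), Trf (0.51 ± 0.13) and Steap3 (0.29 ± 0.10) rose and Tfrc fell (-0.46 ± 0.08). The average for Cp joins a change of 1.12 ± 0.18 in Trem2-KO with 0.17 ± 0.18 in App-KI, which did not pass. The adjusted p of Trf was 0.028 and that of Steap3 was 0.0428, and both lost the call without most single libraries. Of the 6, 4 did not pass with the fibroblast score in the model: Cp (0.25, adjusted p = 0.128), Hmox1 (0.48, adjusted p = 0.0862), Trf (0.43, adjusted p = 0.264) and Steap3 (0.17, adjusted p = 0.545). With no filter on low counts Trf (0.50, adjusted p = 0.0519) and Steap3 (0.29, adjusted p = 0.0651) did not pass, nor did Steap3 with DESeq2 (adjusted p = 0.0613). Fth1 (-0.10 ± 0.05) and Ftl1 (0.14 ± 0.06), the most abundant storage chains, did not pass.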
